A study of Mus musculus with 18 samples.

Results

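Small-intestinal crypts that had lost Myc together with E2f1, E2f2 and E2f3 (E2f/Myc QKO, called QKO here) were set against crypts that had lost E2f1, E2f2 and E2f3 alone (E2f TKO, called TKO here), to ask what loss of Myc adds where these E2f genes are already deleted. The comparison was defined by the array titles and uses 10 of the 18 arrays of the series, 5 for each group, and all 18193 genes that have a probe set with a single gene symbol. The other 8 arrays are 4 of crypts with only Myc deleted (Myc KO) and 4 of control crypts, and they served as the same loss of Myc with E2f1 to E2f3 in place. All mice were 2 months old, and crypts were harvested 2 days after deletion. Deletion used Ah-cre, in which the Cyp1a1 promoter drives Cre recombinase. Compounds that bind the aryl hydrocarbon receptor turn this promoter on in crypt epithelium. The labels do not give the alleles in more detail, do not say whether E2f1 and E2f2 were deleted by Ah-cre or in the germline, and do not say whether control mice carried Ah-cre. They also do not say that each array is a separate animal, so a p-value here measures the spread between these samples, which may be technical.

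Myc encodes a transcription factor that binds DNA with its partner Max, commonly at the E-box CACGTG, and is known for driving genes of ribosome production, nucleotide synthesis and translation. E2f1, E2f2 and E2f3 encode transcription factors that act on genes of DNA replication and are held in check by the retinoblastoma family of pocket proteins. In intestinal crypts, Wnt signalling maintains stem cells and their dividing daughters, Myc is itself a Wnt target, and the daughters give rise to absorptive enterocytes and to secretory goblet, Paneth, enteroendocrine and tuft cells.

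The arrays read as intestinal crypt epithelium. Across the 5 QKO and 5 TKO arrays, the log2 signal of the epithelial gene Epcam was 13.83 to 14.18, that of the villus and crypt brush border gene Vil1 12.50 to 13.23, that of the Paneth cell gene Lyz1 14.48 to 14.70 and that of the goblet cell gene Muc2 12.20 to 13.26. Array medians were 6.23 to 6.26 in QKO and 6.14 to 6.19 in TKO arrays, without overlap, and the median log2 difference of all genes was 0.04 (0.01 after quantile normalization). Without detection calls, it is unknown which signals near 6 exceed background, and a difference from such a level may be understated. The actin 3' probe set exceeded the 5' one, which reflects RNA quality, by 0.19 to 0.31 in QKO and 0.26 to 0.78 in TKO arrays. Precision is limited by how few arrays each group has.

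Some TKO arrays stood apart from the rest of their group. The arrays labelled TKO 2 and 5 read 5.05 and 4.91 for Cyp1a1, whereas the other 16 arrays read 12.66 to 14.09. Averaged over 8 genes of the response to that receptor, their signal was 6.37 and 6.41, against 9.47 to 9.55 in the other TKO arrays. Their E2f3 signal, 9.35 and 9.10, was above all 4 control arrays (8.62 to 8.96) and so went against their label. The main results are therefore given with and without both. TKO 1 differed from its group in another way: its mean over 23 enterocyte genes was 13.12, against 11.53 to 12.40 in the other TKO arrays, and its means of T cell and MHC class II genes, 8.02 and 9.05, were the highest of the 10 arrays. Its mitotic and stem cell means, 8.23 and 9.01, were the lowest of the 10. For lists whose counts moved widely without TKO 1, those counts are given as well.

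Myc itself read 8.52, 7.94, 8.24, 8.05 and 8.02 in QKO arrays, against 10.07, 10.50, 9.99, 10.66 and 10.27 in TKO arrays. All 5 QKO arrays were below all TKO arrays, those labelled TKO 2 and 5 included. The fitted log2 difference, QKO minus TKO, was -2.15 ± 0.14 (standard error, limma adjusted p = 1.57e-07), a 4.42-fold lower signal, and -2.09 without the arrays labelled TKO 2 and 5 (adjusted p = 1.38e-05). E2f3 read 8.09 to 8.19 in all QKO arrays and 8.22, 8.39 and 8.08 in TKO 1, 3 and 4. Its difference, -0.49 ± 0.18, missed the test (adjusted p = 0.0703) and was -0.09 without the arrays labelled TKO 2 and 5 (adjusted p = 0.506). E2f1 was higher in QKO crypts, at 8.03, 8.18, 7.73, 8.27 and 8.08 in QKO arrays and 7.48, 7.59, 7.59, 7.71 and 7.84 in TKO arrays (0.42 ± 0.10, adjusted p = 0.0102), with overlap between the groups, and E2f2 differed by 0.30 ± 0.12 (adjusted p = 0.108). Control arrays read 7.70 to 8.05 for E2f1 and 8.91 to 9.28 for E2f2, so neither gene's probe set followed its deletion in these data, and only a probe set inside the removed exons could check it. The position of the probe sets relative to those exons was not analysed here.

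**Figure D1:**
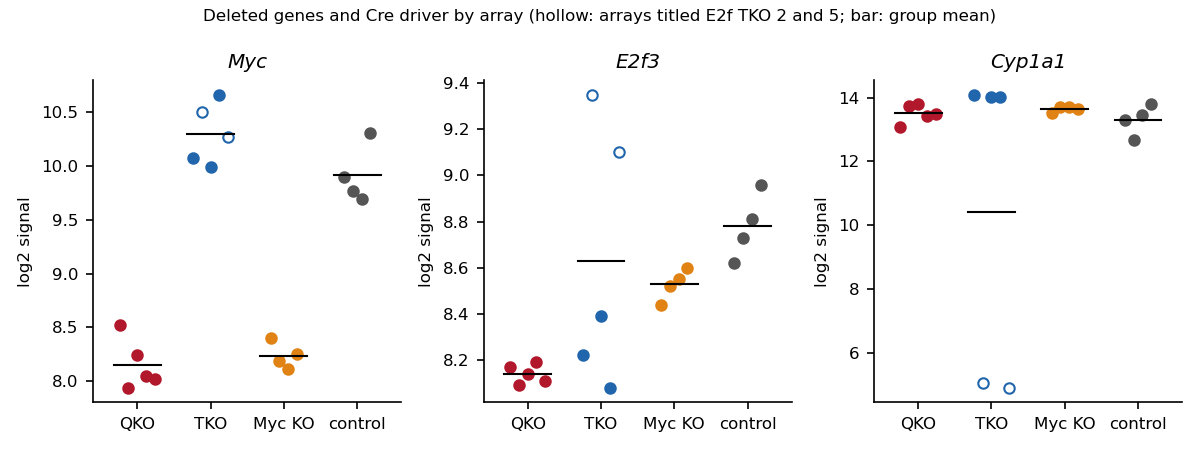
Log2 signal (vertical axis) of Myc, E2f3 and Cyp1a1 in each array of the QKO, TKO, Myc KO and control groups, with bars at group means and hollow points for the arrays labelled TKO 2 and 5. Myc was low in all QKO and Myc KO arrays, while the hollow points were the 2 highest of all arrays for E2f3 and the 2 lowest for Cyp1a1.

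Of the 18193 genes, 1653 (9.09%) were higher and 1447 (7.95%) lower in QKO than in TKO crypts at an adjusted p under 0.05, 3100 in all (17.0%). At least 2-fold changes were few, with 61 genes higher (0.335%) and 62 lower (0.341%). Without the arrays labelled TKO 2 and 5, 1193 genes (6.56%) were higher and 962 (5.29%) lower. Without TKO 1 the counts were 2072 (11.4%) and 2216 (12.2%), and without TKO 1, 2 and 5 they were 1009 (5.55%) and 1380 (7.59%). After quantile normalization of all arrays, 1683 of the 18193 genes were higher and 1260 lower. Among the called genes, 837 of the higher (4.6% of all genes) and 622 of the lower (3.42%) had no overlap between the 5 QKO and 5 TKO arrays. These shares and counts are the background against which the counts of each gene list below are read. Around the Myc locus the share of calls was near that of other genes: 53 of 288 genes within 20 Mb of Myc were called (18.4%), against 17.0% elsewhere.

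Many genes of ribosome production fell in QKO crypts. Of 85 measured genes of nucleolar ribosome biogenesis, which process and assemble ribosomal RNA, 57 fell and 0 rose, and the median log2 difference was -0.46. Without the arrays labelled TKO 2 and 5, 33 fell (median -0.42), without TKO 1, 77 fell (median -0.58), and without all of these arrays 71 fell (median -0.59). The mean over the list was 9.19, 9.08, 9.13, 9.44 and 9.20 in QKO arrays, against 9.22, 9.78, 9.73, 9.90 and 9.80 in TKO arrays, so TKO 1 alone of its group lay within the QKO range. The actin 3' minus 5' difference and the array medians given above moved with the same groups. After quantile normalization 49 genes of the list fell and 1, Dcaf13, rose. In bulk RNA, fewer cells of a type and less RNA of a gene per cell cannot be told apart, here and in all results below.

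Nop16, a nucleolar protein of the large subunit's assembly, read 8.70, 8.52, 8.51, 8.69 and 8.74 in QKO arrays, against 9.23, 9.71, 9.61, 10.10 and 9.90 in TKO arrays. The groups did not overlap, and the difference was -1.07 ± 0.13 (adjusted p = 5.35e-05; -1.01 without the arrays labelled TKO 2 and 5, adjusted p = 0.000912). Rrp1b, a nucleolar ribosomal RNA processing gene, had a slightly larger difference, with 7.83 to 8.34 in QKO arrays and 8.52 to 9.45 in TKO arrays (-1.14 ± 0.16, adjusted p = 0.000284). Wdr46, a small-subunit processing factor, fell by 1.07 (adjusted p = 9.03e-05). Smaller falls that also left no overlap were those of Ebna1bp2 (-0.74), Rrp8 (-0.75) and Utp11 (-0.49), with adjusted p of 0.000251 to 0.000284.

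Some subunits of the polymerases that make ribosomal and transfer RNA fell as well. Of 31 measured genes of RNA polymerase I and III, 13 fell and 0 rose (median -0.27; 11 without the arrays labelled TKO 2 and 5, median -0.16), and 8 of the 31 differences were above 0. After quantile normalization 11 fell and 1 (Gtf3c1) rose. Polr1b, the second largest subunit of polymerase I, read 8.63, 8.36, 8.08, 8.78 and 8.13 in QKO arrays, against 8.86, 9.80, 9.44, 9.66 and 9.65 in TKO arrays. Its arrays did not overlap, though TKO 1 lay only just above the highest QKO array (-1.09 ± 0.16, adjusted p = 0.000374). The polymerase I subunits Polr1e (-0.83) and Polr1a (-0.65) and Gtf3a (-0.53), the factor for 5S ribosomal RNA, also fell (adjusted p 0.00205 to 0.0034).

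Ribosomal proteins changed by less. Of 42 measured genes of cytosolic ribosomal proteins (34 of the 76 listed have no probe set with a single symbol), 16 fell and 0 rose with a median of -0.22, and all 42 differences were below 0 (41 after quantile normalization). The count was 5 without the arrays labelled TKO 2 and 5, namely Rpl4, Rpl14, Rpl35, Rpl37 and Rps20, then 34 without TKO 1, 17 without all of these arrays and 10 after quantile normalization. Rpl37, a protein of the large subunit, read 10.70, 10.39, 10.39, 10.59 and 10.45 in QKO arrays, against 10.93, 11.67, 11.54, 11.49 and 11.78 in TKO arrays. The groups did not overlap (-0.98 ± 0.13, adjusted p = 0.000168). Rps20, of the small subunit, had a smaller difference at a higher signal (13.19 to 13.38 in QKO and 13.49 to 13.77 in TKO arrays, -0.38 ± 0.07, adjusted p = 0.00129). Ribosomal protein genes have many near-identical processed copies in the genome, so their probe sets may read more than 1 locus.

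Host transcripts of small nucleolar RNAs, which guide the modification of ribosomal RNA, showed the lowest median of the growth lists. Of 16 measured, 10 fell and 1 (Snhg11) rose, with a median of -0.67 (8 and 2 without the arrays labelled TKO 2 and 5, median -0.46). Snhg4 read 8.95, 7.99, 8.19, 7.95 and 7.20 in QKO arrays, against 9.0, 10.25, 9.79, 9.52 and 10.32 in TKO arrays. QKO 1 and TKO 1 were close, without overlap, and the fitted difference was -1.72 ± 0.31 (adjusted p = 0.00146). Snhg14 (-0.90), Zfas1 (-0.70) and Snhg8 (-0.68) fell with no overlap between the groups (adjusted p 0.000884 to 0.00189).

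Genes of translation and transfer RNA charging were examined next. Of 39 measured translation factors, 15 fell and 0 rose (median -0.28). Without the arrays labelled TKO 2 and 5, 6 fell and 1 (Eif2b4) rose, without TKO 1, 26 fell, and after quantile normalization 9 fell and 2 (Eif2b4 and Eif5) rose. Eif1a, a factor of start codon selection, read 8.91, 9.07, 9.22, 9.39 and 9.33 in QKO arrays, against 9.80, 10.31, 10.37, 10.39 and 9.97 in TKO arrays (-0.98 ± 0.12, adjusted p = 0.000107). Every QKO array was below every TKO array. Eef1b2, of the elongation factor that recharges EF1A, fell by 0.64 (adjusted p = 0.000749) and Eif2b3, a subunit of the guanine nucleotide exchange factor eIF2B, by 0.49 (adjusted p = 0.00277). Eif4ebp2, which encodes an inhibitor of cap-dependent initiation, fell with them (-0.42 ± 0.06, adjusted p = 0.000408). Of 20 measured aminoacyl-tRNA synthetases, 7 fell and 2 (Aars and Wars) rose, with a median of -0.16 (6 and 2 without the arrays labelled TKO 2 and 5, 11 and 2 without TKO 1). Eprs (-0.57), Hars (-0.53) and Qars (-0.35), which charge the transfer RNAs of glutamate and proline, histidine and glutamine, were among those that fell (adjusted p 0.0019 to 0.00261). The Qars value was 0.02 once _s_at, _x_at and _a_at probe sets were left out. The probe set then used was dimmer, at means of 5.67 in QKO and 5.65 in TKO arrays, against 11.17 and 11.52.

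**Figure D2:**
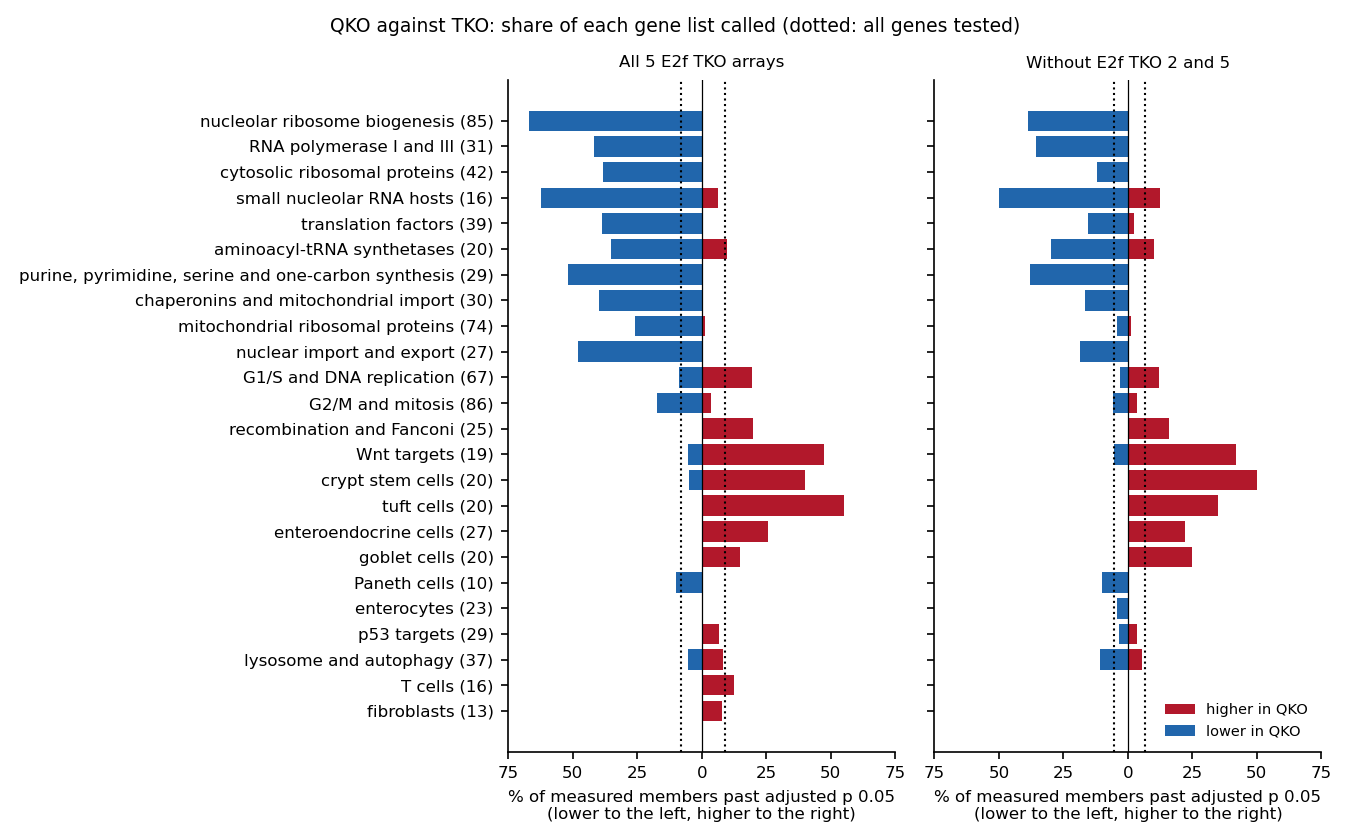
Share of the measured members of 24 gene lists (member number in brackets) past an adjusted p of 0.05 in QKO against TKO, higher to the right and lower to the left, with all 5 TKO arrays (left panel) and without the arrays labelled TKO 2 and 5 (right panel). Dotted lines are the shares of all genes tested, 9.09% and 7.95% on the left and 6.56% and 5.29% on the right. Ribosome biogenesis reached 67.1% lower and tuft cell genes 55.0% higher in the left panel.

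Among enzymes that supply building blocks for nucleic acids, those that passed fell in QKO crypts. Of 29 measured genes of purine, pyrimidine, serine and one-carbon synthesis, 15 fell and 0 rose (median -0.40; 11 without the arrays labelled TKO 2 and 5, median -0.33). Cad, which carries the first steps of pyrimidine synthesis, read 8.52, 7.95, 7.80, 8.10 and 7.81 in QKO arrays, against 8.61, 9.64, 9.34, 9.57 and 9.41 in TKO arrays. QKO 1 and TKO 1 were close, and the groups did not overlap (-1.28 ± 0.17, adjusted p = 0.000129). Ppat, the first enzyme of purine synthesis, read 6.72 to 7.50 in QKO arrays and 7.62 to 8.74 in TKO arrays (-1.24 ± 0.18, adjusted p = 0.000268). A dim further probe set of Ppat, at a mean of 4.29 in QKO and 3.92 in TKO arrays, went the other way (0.37, adjusted p = 0.00569 over all probe sets). Shmt2, the mitochondrial serine hydroxymethyltransferase, fell by 1.02 (adjusted p = 0.00164) and Dhodh, a later pyrimidine enzyme, by 0.87 (adjusted p = 0.00101), both with overlap between the groups. Prps1, which makes the ribose donor of both pathways, fell by 0.60 (adjusted p = 0.000354) and Nme2, a nucleoside diphosphate kinase, by 0.33 (adjusted p = 0.00144), both without overlap.

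Polyamine genes split by direction. Srm, spermidine synthase, read 9.42, 8.84, 9.16, 9.36 and 8.78 in QKO arrays, against 9.81, 10.44, 10.57, 10.84 and 10.41 in TKO arrays. The groups were clearly apart (-1.30 ± 0.17, adjusted p = 0.000121). Mtap, which salvages the by-product of that step, fell by 0.78 (adjusted p = 0.00159), and Odc1, the rate-limiting ornithine decarboxylase, by 0.42 (adjusted p = 0.00798, and 0.0563 without the arrays labelled TKO 2 and 5). Oaz2, an antizyme that inhibits ornithine decarboxylase, rose (9.84 to 10.17 in QKO and 9.27 to 9.73 in TKO arrays, 0.49 ± 0.08, adjusted p = 0.000944). Smox, a spermine oxidase (0.44, adjusted p = 0.0215), and Ass1, a urea cycle enzyme on the arginine supply (0.26, adjusted p = 0.0121), rose too, but missed the test without the arrays labelled TKO 2 and 5 (adjusted p = 0.0973 and 0.0915). The Smox call was also lost without QKO 3, and Ass1 read 3.90 to 4.39 in all 10 arrays, below the array medians. The other 4 of 10 measured genes of the list did not pass.

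In protein folding, import into mitochondria and nuclear transport, the genes that passed also fell. Of 30 measured genes of chaperonins and mitochondrial import, 12 fell and 0 rose (median -0.27). Without the arrays labelled TKO 2 and 5 the fallen were Hspa9, Cct8, Timm9, Tomm20 and Tomm70a, without TKO 1, 23 fell, and after quantile normalization 7 did. Tomm70a, a receptor of the outer membrane translocase, read 10.24, 10.04, 10.07, 10.14 and 10.34 in QKO arrays, against 10.69, 11.08, 11.12, 11.06 and 11.08 in TKO arrays (-0.84 ± 0.09, adjusted p = 3.82e-05). Every QKO array was below TKO 1, the lowest of the TKO arrays. Timm9, a chaperone of the space between the membranes, fell by 1.01 (adjusted p = 4.84e-05) and Tomm20, another import receptor, by 0.58 (adjusted p = 3.82e-05, all 6 of its probe sets lower). Cct8, a subunit of the cytosolic chaperonin, fell by 0.80 (adjusted p = 0.000528), but its difference was 0.07 once _s_at, _x_at and _a_at probe sets were left out. The Cct8 probe set then used was dim, at means of 3.23 in QKO and 3.16 in TKO arrays, against 10.82 and 11.62. Of 27 measured genes of nuclear import and export, 13 fell and 0 rose (median -0.27; 5 without the arrays labelled TKO 2 and 5, namely Kpna4, Ipo4, Tnpo1, Xpot and Rcc1, and 7 after quantile normalization).

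Ipo4, an importin, read 9.16, 8.89, 9.01, 8.98 and 8.80 in QKO arrays, against 9.88, 10.13, 9.93, 10.19 and 10.04 in TKO arrays. This was among the most even separations, with TKO 1 also high (-1.07 ± 0.08, adjusted p = 4.51e-07). The importins Kpna4 (-0.65) and Tnpo1 (-0.59) fell as well (adjusted p = 0.0012 and 0.00247). The count for mitochondrial ribosomal proteins depended on the arrays and the scaling. Of 74 measured, 19 fell and 1 (Mrpl14) rose, with a median of -0.12, but 3 fell without the arrays labelled TKO 2 and 5, 35 without TKO 1 and 4 after quantile normalization. Mrps9 fell by 0.62 (adjusted p = 0.00449), with its 4 probe sets split, 2 lower and 1 higher past the test, and Mrpl14 rose by 0.33 (adjusted p = 0.0025).

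The promoters of the genes that changed were read for the E-box CACGTG, whose letters are the same on both strands, in the 250 bases before each RefSeq gene start on GRCm38.p6. It was present in 11.2% of 1470 such windows of genes lower in QKO, 6.76% of 1716 windows of genes higher in QKO, and 7.38% of 18109 windows of all genes tested. The windows of the lower genes also held more G and C on average, 61.0% against 58.0% for the higher genes and 57.7% for all, and the part of base composition in the difference was not tested. Motif matches were listed for the 52 named lower genes with a window, but any match in Eif1a, Hars or Snhg4 was left out of the list. The list may therefore be incomplete, and it holds 6 genes, Espl1, Wdr46, Timm9, Rpl14, Tomm20 and Bmi1. Every gene of this list fell because only lower genes were searched for it, Espl1 (-1.17) and Bmi1 (-0.43) included. Only the windows of those that belong to ribosome production and mitochondrial import are shown, with the motif in capitals. Wdr46 lies at chr17:33940473-33940722 (+), Timm9 at chr12:71136676-71136925 (-), Rpl14 at chr9:120571267-120571516 (+) and Tomm20 at chr8:126945922-126946171 (-), each read on the gene's own strand.
Wdr46: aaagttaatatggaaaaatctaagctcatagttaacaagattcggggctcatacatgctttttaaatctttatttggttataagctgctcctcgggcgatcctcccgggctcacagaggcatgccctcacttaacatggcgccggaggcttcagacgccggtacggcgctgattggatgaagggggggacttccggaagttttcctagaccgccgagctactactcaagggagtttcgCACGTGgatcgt
Timm9: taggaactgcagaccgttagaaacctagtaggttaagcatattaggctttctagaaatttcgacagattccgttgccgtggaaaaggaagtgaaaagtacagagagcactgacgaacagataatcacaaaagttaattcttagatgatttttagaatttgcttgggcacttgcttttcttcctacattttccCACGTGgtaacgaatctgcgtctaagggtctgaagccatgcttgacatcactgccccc
Rpl14: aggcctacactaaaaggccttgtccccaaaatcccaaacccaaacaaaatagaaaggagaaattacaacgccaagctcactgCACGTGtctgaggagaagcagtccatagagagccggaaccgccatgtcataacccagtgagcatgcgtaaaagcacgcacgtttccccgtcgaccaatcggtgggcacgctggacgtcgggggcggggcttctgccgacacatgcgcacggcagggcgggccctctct
Tomm20: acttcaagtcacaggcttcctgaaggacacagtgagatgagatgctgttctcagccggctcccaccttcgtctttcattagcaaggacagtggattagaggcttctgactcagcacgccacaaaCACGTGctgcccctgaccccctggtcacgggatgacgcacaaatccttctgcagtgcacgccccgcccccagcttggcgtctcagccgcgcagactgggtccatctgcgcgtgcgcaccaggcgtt
The motif began 12 bases before the gene start in Wdr46, 58 in Timm9, 168 in Rpl14 and 126 in Tomm20. Beside these letters, Wdr46 fell by 1.07 and Timm9 by 1.01, against 0.92 for Rpl14 (adjusted p = 0.00367) and 0.58 for Tomm20. A match describes the letters only and is not a measured site of Myc binding.

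Counts for DNA replication and mitosis depended on which arrays were used. Of 67 measured genes of G1/S and DNA replication, 13 rose and 6 fell, with a median of 0.16 (8 and 2 without the arrays labelled TKO 2 and 5, 10 and 10 without TKO 1, 2 and 7 without all of these arrays, and 19 and 3 after quantile normalization). The list mean was 9.68, 9.85, 9.81, 10.26 and 10.05 in QKO arrays, against 9.37, 9.84, 9.88, 10.02 and 9.91 in TKO arrays. The groups overlapped, and TKO 1 was the lowest array. Timeless, a replication fork protein, read 9.92, 10.31, 10.04, 10.69 and 10.31 in QKO arrays, against 9.05, 9.38, 9.75, 9.86 and 9.39 in TKO arrays. It rose without overlap (0.77 ± 0.15, adjusted p = 0.00321), though the difference was 0.45 without TKO 1, 2 and 5 (adjusted p = 0.101). Orc1, of the origin recognition complex, rose by 0.65 (8.34 to 8.84 in QKO and 7.55 to 7.99 in TKO arrays, adjusted p = 0.000284) and Pold1, the catalytic subunit of polymerase delta, by 0.61 (adjusted p = 0.00839), and these were the members that still rose without all of these arrays. Gins2, of the replicative helicase complex (0.76), and Fen1, the flap endonuclease (0.40), rose with adjusted p of 0.00373 and 0.00586, but not in that fit (adjusted p = 0.138 and 0.0623). A similarly bright further probe set of Orc1, at means of 8.39 in QKO and 8.03 in TKO arrays, was not called with all arrays. It differed by 0.36 (adjusted p = 0.113 over all probe sets).

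Ccne2, the cyclin E2 gene, was among the 6 genes of the G1/S and DNA replication list that fell. It read 5.12, 4.99, 5.13, 5.45 and 5.38 in QKO arrays, against 5.67, 6.87, 5.82, 6.19 and 6.70 in TKO arrays, and the arrays labelled TKO 2 and 5 were the highest. The difference was -1.04 ± 0.19 (adjusted p = 0.00181) and -0.68 without them (adjusted p = 0.00847), at signals around or below the array medians. Of 86 measured genes of G2/M and mitosis, 15 fell and 3 (Cenpt, Dsn1 and Cit) rose, with a median of -0.27. The count varied with the arrays used: 5 fell without the arrays labelled TKO 2 and 5 (median -0.05), 52 fell without TKO 1 (median -0.45) and 23 fell without all of these arrays (median -0.36). After quantile normalization 12 fell and 6 rose. The list mean was 8.68, 8.36, 8.50, 8.97 and 8.80 in QKO arrays, against 8.23, 9.35, 8.97, 9.09 and 9.25 in TKO arrays, so TKO 1 was below all QKO arrays and the other TKO arrays were level with or above the highest of them.

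Single mitotic genes show the same layout. Espl1, which encodes separase, read 7.51, 6.48, 6.67, 7.23 and 6.85 in QKO arrays, against 7.13, 8.73, 8.09, 8.30 and 8.31 in TKO arrays. Only TKO 1, at 7.13, fell within the QKO range (-1.17 ± 0.23, adjusted p = 0.00271). The spindle genes Nusap1 (-1.22), Tpx2 (-1.10) and Hmmr (-1.03) and the mitotic gene Depdc1a (-1.15) fell with adjusted p of 0.00299 to 0.0049, each with TKO 1 inside the QKO range. Depdc1a read 3.49 to 3.97 in QKO and 3.82 to 5.66 in TKO arrays, below the array medians. Cit, the citron kinase of cytokinesis, rose without overlap (8.87 to 9.06 in QKO and 8.61 to 8.72 in TKO arrays, 0.31 ± 0.06, adjusted p = 0.00233). Among 12 measured genes of D-type cyclins, their kinases and CDK inhibitors, 1 passed (without TKO 1, Cdk4 and Cdkn1b fell as well). Ccnd2, cyclin D2, read 13.18, 13.54, 13.47, 13.85 and 13.72 in QKO arrays, against 12.25, 12.15, 12.79, 12.71 and 12.74 in TKO arrays, and rose by 1.02 ± 0.16 (adjusted p = 0.000494). The inhibitor gene Cdkn2c read 6.98 to 7.21 in QKO and 6.4 to 6.97 in TKO arrays (0.34 ± 0.12, adjusted p = 0.0665), against 10.28 to 10.68 in Myc KO and 9.66 to 10.23 in control arrays. Without the arrays labelled TKO 2 and 5 it rose by 0.50 (adjusted p = 0.0167).

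Genes of homologous recombination and the Fanconi pathway, which repair broken and crosslinked DNA, rose where they passed with all arrays. Of 25 measured, 5 rose (Brca1, Rad51c, Rad54l, Fanca and Fancg) and 0 fell, with a median of 0.23 (4 and 0 without the arrays labelled TKO 2 and 5, 1 and 0 without TKO 1, 2 and 5). Without TKO 1 alone, 3 rose and 2 (Brip1 and Fancf) fell. Rad51c, a gene of homologous recombination, read 7.80, 7.93, 8.05, 8.06 and 8.0 in QKO arrays, against 6.88, 7.36, 7.22, 7.34 and 7.28 in TKO arrays. It was the member called in each of these fits (0.75 ± 0.08, adjusted p = 3.82e-05; 0.69 without TKO 1, 2 and 5, adjusted p = 0.000222). Rad54l (0.75), Brca1 (0.45), Fanca (0.44) and Fancg (0.43) had adjusted p of 0.0034 to 0.043. The Brca1 call was lost without TKO 1, TKO 5, QKO 4 or QKO 5, and the Fanca call without any of 7 arrays (TKO 1, 3 or 5, or QKO 1, 2, 4 or 5).

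In the E2f and pocket protein family, 5 of 18 measured genes rose (E2f1, E2f5, Tfdp2, Rbl1 and Lin52) and 5 fell (E2f7, Tfdp1, Rb1, Rbl2 and Lin54), and without the arrays labelled TKO 2 and 5 these counts were 4 and 0. Rbl1, which encodes the pocket protein p107, rose by 0.34 (9.71 to 10.21 in QKO and 9.57 to 9.70 in TKO arrays, adjusted p = 0.00958). Lin52, of the complex that joins pocket proteins to E2f targets, rose by 0.32 (adjusted p = 0.00483). E2f5, which encodes a repressive E2f factor, rose by 0.26 (adjusted p = 0.0266), a call lost without any of 5 arrays (TKO 2, 4 or 5, or QKO 1 or 2). Of its 3 probe sets only 1 was called, and the others differed by -0.28 and 0.08. Rb1, the retinoblastoma gene, was lower by 0.42 (adjusted p = 0.028), a call lost without TKO 1 or 3 or QKO 2, 3 or 4. In the Myc network, 2 of 13 measured genes rose (Mycn and Mlxipl) and 2 fell (Myc and Mga). Mlxipl, a glucose-responsive factor, read 12.13 to 12.40 in QKO arrays and 11.34 to 12.10 in TKO arrays (0.65 ± 0.12, adjusted p = 0.0023). Mga, a Max-binding repressor, fell by 0.68 (adjusted p = 0.00412). The paralog Mycn differed by 0.23 (7.49 to 7.61 in QKO and 7.05 to 7.47 in TKO arrays, adjusted p = 0.034), a call lost without any of 7 arrays (TKO 2, 3 or 4, or QKO 1, 2, 3 or 4). Max, the binding partner, varied widely among TKO arrays (7.77 to 10.12, and 8.19 to 8.65 in QKO arrays) and did not pass (-0.57 ± 0.30, adjusted p = 0.199; -1.08 without the arrays labelled TKO 2 and 5, adjusted p = 0.00832).

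**Figure D3:**
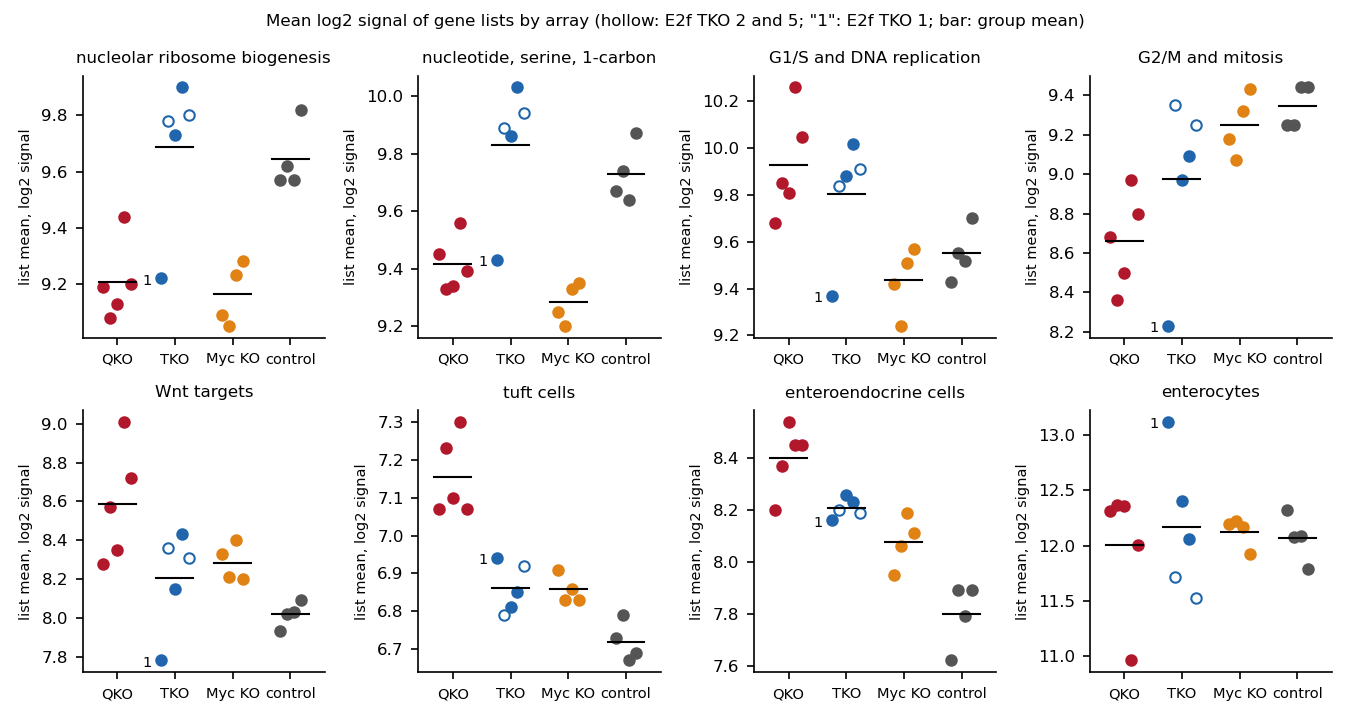
Mean log2 signal (vertical axis) over the measured members of 8 gene lists in each array of the QKO, TKO, Myc KO and control groups, with bars at group means, hollow points for the arrays labelled TKO 2 and 5, and TKO 1 marked 1. For ribosome biogenesis, TKO 1 (9.22) lay within the QKO range of 9.08 to 9.44, while all 5 QKO arrays were above all TKO arrays for tuft cell genes.

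Of 19 measured Wnt targets, 9 rose in QKO crypts and 1, Myc, fell, with a median of 0.42 (8 and 1 without the arrays labelled TKO 2 and 5, median 0.58; 4 and 1 without TKO 1, 2 and 5, median 0.37). Without TKO 1, 8 rose and 2 (Myc and Znrf3) fell. Etv4, an ETS transcription factor, read 8.62, 8.94, 8.70, 9.15 and 8.98 in QKO arrays, against 7.14, 7.11, 7.80, 7.77 and 7.26 in TKO arrays. The lowest QKO array was well above the highest TKO array (1.47 ± 0.13, adjusted p = 7.14e-06). Ephb3, a receptor that positions cells along the crypt, rose by 0.92 (9.61 to 10.33 in QKO and 8.22 to 9.20 in TKO arrays, adjusted p = 0.00169). Rnf43, a ligase that removes Wnt receptors, and Nkd1, an inhibitor of the pathway, rose by 0.67 and 0.64 (adjusted p = 0.0034 and 0.0136). These were the members that rose without TKO 1, 2 and 5 as well. Of the 4 Nkd1 probe sets only 1 was called, and the others differed by -0.02, 0.06 and -0.15. Tnfrsf19, also a stem cell marker, read 7.52 to 8.58 in QKO arrays and spread from 6.08 to 7.97 in TKO arrays (1.47 ± 0.29, adjusted p = 0.00314; 0.60 without TKO 1, 2 and 5, adjusted p = 0.124).

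Of 20 measured crypt stem cell genes, 8 rose and 1 (Bmi1) fell, with a median of 0.40 (10 and 0 without the arrays labelled TKO 2 and 5, 6 and 3 without TKO 1, 5 and 1 without all of these arrays). This list shares members with the Wnt targets, Rnf43 and Znrf3 among them, so the counts of both lists are not separate results. Hopx, a homeodomain gene of slowly cycling crypt cells, read 12.44, 12.57, 12.53, 12.55 and 12.55 in QKO arrays, against 11.84, 11.98, 12.02, 12.02 and 11.91 in TKO arrays. It was the most even of the list (0.57 ± 0.06, adjusted p = 1.68e-05). Cd44, an adhesion receptor (0.83, adjusted p = 0.0139), and Cdca7, a chromatin protein of dividing crypt cells (0.49, adjusted p = 0.026), rose with TKO 1 the lowest array, and both missed the test without TKO 1, 2 and 5 (adjusted p = 0.0761 and 0.119). The Cdca7 call was also lost without QKO 4 or QKO 5. Bmi1, a Polycomb gene, was lower by 0.43 (adjusted p = 0.0108, and 0.0745 without the arrays labelled TKO 2 and 5). The defining markers of cycling stem cells, named here after their values were seen, did not pass. Lgr5 read 7.43 to 9.55 in QKO and 7.35 to 9.30 in TKO arrays (0.20 ± 0.34, adjusted p = 0.73), Ascl2 differed by 0.42 (adjusted p = 0.132) and Olfm4 by -0.05 (adjusted p = 0.844).

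With all arrays, tuft cell genes had the largest share of higher calls among the 44 lists. Of 20 measured, 11 rose and 0 fell, with a median of 0.25 (7 and 0 without the arrays labelled TKO 2 and 5, 11 and 0 without TKO 1, 8 and 0 without all of these arrays). The list mean was 7.07, 7.23, 7.10, 7.30 and 7.07 in QKO arrays, against 6.94, 6.79, 6.81, 6.85 and 6.92 in TKO arrays, without overlap. Avil, an actin-binding protein of the tuft, read 8.55, 8.76, 8.53, 9.09 and 8.73 in QKO arrays, against 7.83, 8.15, 7.76, 7.88 and 8.34 in TKO arrays (0.74 ± 0.11, adjusted p = 0.000396). All QKO arrays were above all TKO arrays. Trpm5, the taste-signalling channel of these cells, rose by 0.39 (7.29 to 7.82 in QKO and 6.94 to 7.28 in TKO arrays, adjusted p = 0.0081) and Pou2f3, the factor that specifies them, by 0.31 (adjusted p = 0.00837). Krt23 (0.87), Alox5ap, of leukotriene synthesis (0.61), and Dclk1, a tuft cell kinase (0.50), rose with overlap between the groups (adjusted p 0.0037 to 0.0113).

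Fewer genes passed in the lists of the other secretory cells. Of 27 measured enteroendocrine genes, 7 rose and 0 fell (median 0.17; 6 and 0 without the arrays labelled TKO 2 and 5, 4 and 2 without TKO 1, 2 and 5, where Pax4 and Insm1 fell). Pcsk1, a protease that processes prohormones, read 7.73, 7.98, 8.0, 8.20 and 8.37 in QKO arrays, against 7.42, 7.54, 7.33, 7.61 and 7.64 in TKO arrays (0.55 ± 0.12, adjusted p = 0.00447). The groups did not overlap, nor did those of Scg3, a granule protein (0.37, adjusted p = 0.00164), Sst, which encodes somatostatin (0.60, adjusted p = 0.00916), and Chgb, another granule protein (0.45, adjusted p = 0.0213, a call lost without QKO 4). Gip, which encodes an incretin hormone, rose by 0.46 (adjusted p = 0.0143). Tac1, which encodes substance P, rose by 0.54 (adjusted p = 0.0365), a call lost without any of 7 arrays (TKO 1, 2 or 5, or QKO 2, 3, 4 or 5). Of 20 measured goblet cell genes, 3 rose (Spink4, Retnlb and Ramp1) and 0 fell. The genes that rose without the arrays labelled TKO 2 and 5 were 5 (Muc2, Clca3a1, Spink4, Agr2 and Retnlb). Spink4, a secreted protease inhibitor, read 14.03 to 14.18 in QKO and 13.03 to 13.92 in TKO arrays (0.47, adjusted p = 0.0236, a call lost without QKO 2). Ramp1, a receptor-modifying protein, rose by 0.48 (adjusted p = 0.0231), a call lost without TKO 2 or QKO 4. Muc2, the main goblet cell mucin, differed by 0.32 (adjusted p = 0.132; 0.48 without the arrays labelled TKO 2 and 5, adjusted p = 0.0382).

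Of 10 measured Paneth cell genes, 1 passed. Defa31, an alpha-defensin gene, read 6.21, 7.04, 7.93, 6.16 and 8.93 in QKO arrays, against 11.43, 11.53, 10.22, 11.02 and 7.22 in TKO arrays, with the array labelled TKO 5 inside the QKO range (-3.03 ± 0.66, adjusted p = 0.00523). Control and Myc KO arrays read 6.60 to 7.13. Alpha-defensin genes are near-identical copies whose number differs between mouse strains, so this value is uncertain as that of a single gene. Of 23 measured enterocyte genes, 0 passed in either direction (median -0.06; 0 rose and 1, Krt20, fell without the arrays labelled TKO 2 and 5). The median log2 difference there was -0.42, and the enterocyte mean of QKO 4, 10.96, was the lowest of the 10 arrays. In the Notch and secretory choice list 1 of 20 rose, Hes6. Dll1 and Foxa2 rose in its place without the arrays labelled TKO 2 and 5, without TKO 1, Notch2 and Foxa1 fell, and without all of these arrays 0 passed.

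The largest single changes were led by Retnlb, which encodes a secreted resistin-like protein of goblet cells. Retnlb read 13.44, 14.37, 13.89, 13.84 and 13.47 in QKO arrays, against 5.91, 6.06, 7.13, 6.35 and 5.11 in TKO arrays. TKO levels were near the array medians, while control arrays read 11.86 to 12.30 and Myc KO arrays 12.59 to 14.23. The difference was 7.69 ± 0.32 (adjusted p = 1.39e-10), a 207-fold higher signal, and 7.34 without the arrays labelled TKO 2 and 5 (adjusted p = 4.01e-09). Pla2g5, a secreted phospholipase, came next, with 9.42 to 10.08 in QKO and 6.25 to 8.58 in TKO arrays (2.21 ± 0.36, adjusted p = 0.000748). The arrays labelled TKO 2 and 5 were its lowest, and without them the difference was 1.57. Abcc6 (1.69), a membrane transporter, Wfdc1 (1.64), Lect2 (1.64), Rgcc (1.62) and 1500035N22Rik (1.52) followed, with adjusted p of 1.68e-05 to 0.00284. Adgrg6, an adhesion G protein-coupled receptor (1.49), Etv4 (1.47), Fgfr4, a fibroblast growth factor receptor (1.37), Ccdc25 (1.36) and Tlr1, a Toll-like receptor (1.36), complete the 12 largest rises without overlap. Fgfr4 read 8.64 to 9.78 in QKO and 7.39 to 8.09 in TKO arrays.

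**Figure D4:**
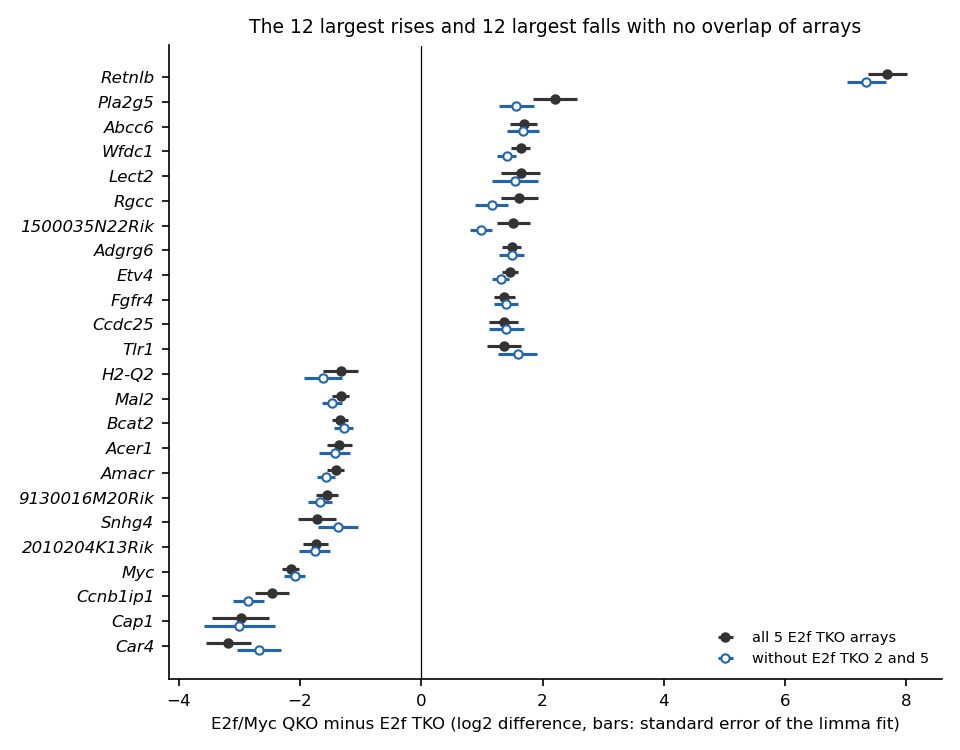
Log2 difference, QKO minus TKO (horizontal axis), of the 12 genes that rose and the 12 that fell most among those past the test whose arrays do not overlap, with bars for the standard error of the fit. Filled points use all 5 TKO arrays and open points leave out those labelled TKO 2 and 5; Retnlb stands alone at 7.69 and 7.34, and all 24 kept their direction.

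Car4, a membrane-bound carbonic anhydrase, fell most. It read 6.83, 7.48, 8.27, 6.50 and 7.34 in QKO arrays, against 10.47, 11.48, 9.18, 10.24 and 10.96 in TKO arrays, and QKO arrays reached towards the array median (-3.18 ± 0.37, adjusted p = 4.52e-05). Cap1, an actin-regulating gene, read 8.22, 7.66, 8.30, 8.65 and 8.33 in QKO arrays, against 11.41, 11.17, 11.14, 11.13 and 11.20 in TKO arrays (-2.98 ± 0.47, adjusted p = 0.0006). Cap1 also varied within the other groups, with 10.64, 10.90, 8.83 and 8.74 in Myc KO arrays and 10.34, 7.45, 8.02 and 7.85 in control arrays. Ccnb1ip1, a meiotic recombination gene, fell by 2.46 (4.79 to 6.07 in QKO and 7.09 to 9.13 in TKO arrays, adjusted p = 4.26e-05). After Myc came 2010204K13Rik (-1.74), Snhg4 and 9130016M20Rik (-1.56). Amacr, an enzyme of branched fatty acid oxidation (-1.41), Acer1, a ceramidase (-1.35), Bcat2, the mitochondrial branched-chain aminotransferase (-1.34), Mal2, a membrane traffic protein (-1.33), and H2-Q2, a class I MHC gene with close paralogs (-1.33), complete the 12 largest falls, with adjusted p of 1.68e-05 to 0.00546 for these 5.

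Loss of Myc with E2f1 to E2f3 in place was measured by Myc KO against control, which shares no array with QKO against TKO, though both came from the same fit and its spread. There 653 genes were higher (3.59%) and 858 lower (4.72%). Of the genes lower in QKO, 629 were also lower in Myc KO, which is 43.5% of the 1447 and 73.3% of the 858, and 1 (Prxl2c) was higher. Of the genes higher in QKO, 377 were also higher in Myc KO, which is 22.8% of the 1653 and 57.7% of the 653, and 2 (Plcl1 and Trappc6a) were lower. With the arrays labelled TKO 2 and 5 left out, 475 genes were lower in both, which is 49.4% of the 962 and 45.2% of the 1051 lower in Myc KO in that fit, and 3 (Abcc4, Gclc and Myh10) were opposite. In the same fit 325 genes were higher in both, which is 27.2% of the 1193 and 38.8% of the 838, and 1 (Leng1) was opposite. Signs were shared more widely than calls: 95.6% of genes called lower in QKO had a Myc KO difference below 0, against 46.0% of all genes, and 91.6% of genes called higher had one above 0, against 54.0% of all genes. Across the 18193 genes, which are not independent, the log2 differences correlated at r = 0.64, and at 0.48 without the arrays labelled TKO 2 and 5. Array medians were 6.22 to 6.26 in Myc KO and 6.15 to 6.16 in control arrays. The actin 3' minus 5' difference was 0.18 to 0.22 in Myc KO and 0.31 to 0.44 in control arrays. Both measures moved in the same direction between QKO and TKO arrays, where the actin ranges overlap. Their part in the shared changes was not tested.

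The lists can be read side by side. In ribosome biogenesis, 57 of 85 genes fell in QKO against TKO (median -0.46) and 41 of 85 in Myc KO against control (median -0.41). In cytosolic ribosomal proteins the counts were 16 and 28 of 42, and in nucleotide, serine and one-carbon synthesis 15 and 13 of 29. In G1/S and DNA replication, 13 rose and 6 fell in QKO against TKO, and 0 rose and 1 fell in Myc KO against control. In G2/M and mitosis, 15 fell in QKO against TKO and 0 fell in Myc KO against control. In tuft cells 11 and 1 of 20 rose, in enteroendocrine cells 7 and 2 of 27, and in Wnt targets 9 and 6 of 19. Medians were 0.25 and 0.15 in tuft cells, 0.17 and 0.30 in enteroendocrine cells, and 0.42 and 0.45 in Wnt targets. Of the enteroendocrine differences, 22 were above 0 in QKO against TKO and all 27 in Myc KO against control. Over all genes, 9.09% rose and 7.95% fell in QKO against TKO, and 3.59% and 4.72% in Myc KO against control. None of these differences in counts was tested as a list. At the level of genes, Nop16 fell by 1.07 in QKO against TKO and by 0.88 in Myc KO against control, Etv4 rose by 1.47 and 1.01, and Car4 fell by 3.18 and 2.46. The test of the difference between both contrasts gave an adjusted p of 0.937 for Nop16, 0.763 for Etv4 and 0.911 for Car4, and a p that misses the threshold does not show that the effects are alike.

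**Figure D5:**
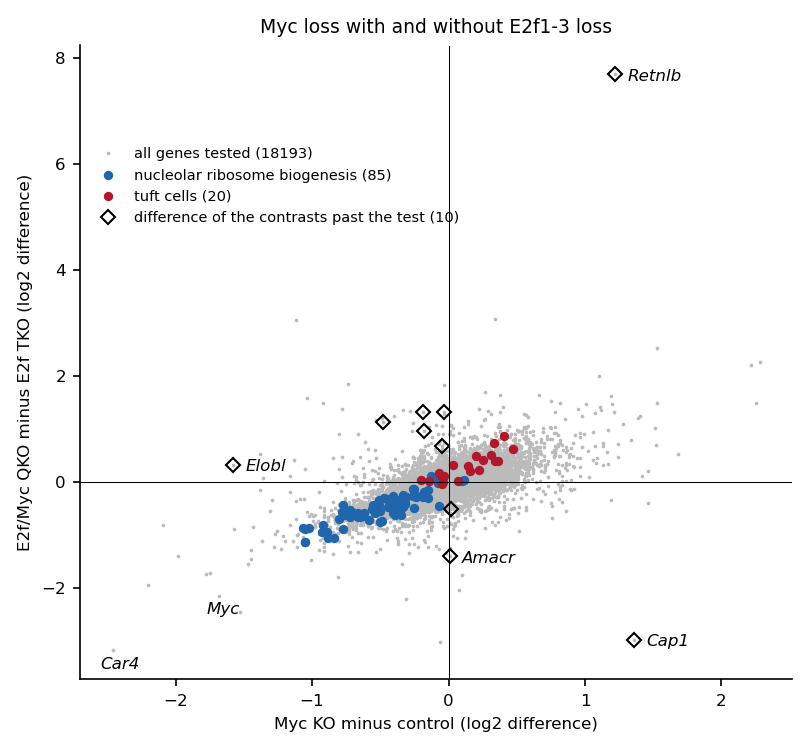
Log2 difference of each of the 18193 genes in QKO minus TKO (vertical axis) against that in Myc KO minus control (horizontal axis), with ribosome biogenesis and tuft cell genes in colour and diamonds on the 10 genes whose difference between the contrasts passed the test. Most ribosome biogenesis genes lie below 0 on both axes, and Retnlb and Cap1 are the diamonds farthest from the rest, at 7.69 and -2.98 on the vertical axis.

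The difference between both contrasts passed the test for 10 genes (0.055%), given as QKO minus TKO less Myc KO minus control. Retnlb differed most, at 6.47 (adjusted p = 2.05e-06), with 1.22 in Myc KO against control. Cap1 followed at -4.34 (adjusted p = 0.0253), then Elobl at 1.90 (adjusted p = 0.00326), which fell by 1.58 in Myc KO against control and did not pass in QKO against TKO (0.32, adjusted p = 0.191). Scpep1, a lysosomal carboxypeptidase (1.61), 9930104L06Rik (1.5), Rims2, a synaptic release protein (1.34), Ndufs5, a subunit of respiratory complex I (1.14), and Cybrd1, an iron reductase of the duodenal brush border (0.72), were higher in QKO than in TKO with Myc KO differences of -0.48 to -0.03 that missed the test. Amacr (-1.42) and Cebpb, a C/EBP transcription factor (-0.53), were lower in QKO than in TKO, with Myc KO differences of 0.01 and 0.02. Of these 10 genes, Cap1, Ndufs5 and 9930104L06Rik on chromosome 4, which carries E2f2, and Cebpb on chromosome 2, which carries E2f1, lie within 20 Mb of a deleted gene, as do 1469 of all 18193 genes. In QKO against TKO as such, 251 of those 1469 genes were called (17.1%), against 17.0% elsewhere.

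Ndufs5 shows how such genes were laid out over the groups. It read 10.95, 10.89, 11.02, 10.86 and 11.21 in QKO arrays, against 9.85 to 10.12 in the 5 TKO arrays. Myc KO arrays read 10.61 to 11.09 and control arrays 10.70 to 11.21, so the TKO arrays were the low ones. 9930104L06Rik had the same layout, at 6.22 to 6.45 in QKO and 4.81 to 5.24 in TKO arrays, with 5.95 to 6.42 in Myc KO and 5.95 to 6.55 in control arrays. Amacr had the QKO arrays apart, at 7.62 to 8.42, against 9.09 to 9.76 in TKO arrays, with 9.33 to 9.57 in Myc KO and 9.37 to 9.51 in control arrays.

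Counts in the remaining lists were small, with 5 or fewer genes in each direction. Of 22 measured amino acid transporters, 4 rose (Slc1a4, Slc7a11, Slc38a1 and Slc38a4) and 5 fell (Slc3a2, Slc7a5, Slc7a6, Slc7a8 and Slc38a2), and without TKO 1, 2 and 5, 0 rose and 7 fell. Slc7a5, the light chain of a leucine transporter, fell by 0.83 (7.22 to 7.61 in QKO and 7.62 to 8.71 in TKO arrays, adjusted p = 0.000852) and Slc7a8 by 0.95 (adjusted p = 0.00241), while Slc38a1, a glutamine transporter, rose by 0.55 (adjusted p = 0.0135). Of 15 measured glycolysis genes, 3 rose and 2 fell (0 and 3 without TKO 1, 2 and 5), among them Hk2, a hexokinase (0.88, adjusted p = 0.00848), and Pkm, pyruvate kinase (0.39, adjusted p = 0.00599), which rose, and the glucose transporter Slc2a1, which fell by 0.56 (adjusted p = 0.0114). In cholesterol synthesis 2 of 19 rose, Tm7sf2 (0.71, adjusted p = 0.000268) and Sc5d (0.67, adjusted p = 0.00156), both sterol enzymes. Of the 3 Sc5d probe sets, only 1 was called. The others differed by -0.25 and -0.21 (adjusted p = 0.108 and 0.149 over all probe sets). In the Bcl2 family and caspases, where 3 rose and 2 fell without TKO 1, Bcl2l11, which encodes the pro-apoptotic protein BIM, rose by 0.41 (adjusted p = 0.00544), and the pro-apoptotic Bid and Bmf fell by 0.81 and 0.53 (adjusted p = 0.00105 and 0.00947). Of the 5 Bcl2l11 probe sets, only 1 was called. A similarly bright one, at means of 8.55 in QKO and 8.46 in TKO arrays, differed by 0.09 (adjusted p = 0.509 over all probe sets). The Bmf call was lost without the arrays labelled TKO 2 and 5 (adjusted p = 0.0566), and its difference was 0.00 once _s_at, _x_at and _a_at probe sets were left out. The Bmf probe set then used averaged 4.8 in both groups. The called one averaged 5.36 in QKO and 5.89 in TKO arrays, so both probe sets were below the array medians. Of 29 p53 targets, 2 rose (Phlda3 and Polk; 5 rose and 1 fell without TKO 1). Of 37 genes of lysosome and autophagy, 3 rose and 2 fell (8 and 3 without TKO 1).

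Markers of cells outside the epithelium showed few calls. Of 16 T cell genes, 2 rose (Cd8a and Zap70) with all arrays and 0 without the arrays labelled TKO 2 and 5, and the list mean was 6.90 to 7.40 in QKO and 6.16 to 8.02 in TKO arrays. Of 13 myeloid genes 1 rose (Itgax), of 13 fibroblast genes 1 (Pdgfrb), of 8 endothelial genes 1 (Tek) and of 8 neuronal and glial genes 1 (S100b), and of 8 smooth muscle genes 1 fell (Actg2). Of these calls, S100b was the one still made without the arrays labelled TKO 2 and 5. In the lists of 8 B and plasma cell genes, 11 mast cell genes, 3 red blood cell genes, 29 interferon response genes, 9 MHC class II genes and 8 targets of the aryl hydrocarbon receptor, 0 passed with all arrays. H2-Eb1 of the MHC class II list and the receptor's target Cyp1a2 fell once the arrays labelled TKO 2 and 5 were left out. In the epithelial list of 13, Krt18 rose and Cdh1 fell (Krt18 and Krt19 rose, and Cdh1 and Krt20 fell, without the arrays labelled TKO 2 and 5). Without TKO 1, Cdx1 of that list fell too, and Ifi27 of the interferon list rose. Fibroblast means were 5.97 to 6.32 in QKO and 5.83 to 6.70 in TKO arrays, near the array medians. The part of these cells in the results above was not tested.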

How the data were processed

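RNA from 18 crypt samples was biotin-labelled and measured on arrays of 45101 probe sets, per the labels' protocols. The authors deposited log2 signals. The log2 scale was read from their range (2.29 to 14.81), while no source used here names the normalization or the probe summary. Scanner files were not used. Values were taken as deposited. All 18 columns matched a sample, and 0 were left over. Pairs of arrays correlated at 0.973 to 0.996. Of the probe sets, 34945 had 1 gene symbol in the platform annotation, 932 had several, 9160 had none and 64 were controls. Where a gene had several probe sets (9010 of 18193 genes), the 1 brightest on average across the 18 arrays was kept.

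Group means of 18 arrays were fitted by lmFit, contrasts.fit and eBayes of limma 3.58.1 (R 4.3.3). Tests were two-sided, p-values were adjusted by Benjamini-Hochberg across all 18193 genes, and 0.05 was the threshold. Contrasts were QKO minus TKO, Myc KO minus control and their difference. The script was tested on simulated data. The genes and 44 lists were chosen with earlier results of these data known. Genes named are the deleted genes and Cyp1a1, the 12 largest rises and falls past the test without overlap of arrays, up to 6 members of each list with the smallest p, and, added after their values were seen, those that passed the difference of the contrasts and defining markers of the tissue. Lists are described by counts and medians, with no list test. Promoter windows came from RefSeq's table for GRCm38.p6. The alternatives were quantile normalization, only genes brighter than the median (7.24), averaging each gene's probe sets, no _s_at, _x_at or _a_at probe sets, the 10 arrays alone, the replicate number as a block, trended and robust eBayes, array weights, Xist as a covariate, no genes within 20 Mb of a deleted gene, each array left out in turn, and the arrays labelled E2f TKO 2 and 5 left out together. The fit without E2f TKO 1, 2 and 5 was chosen after seeing the data. Figures were drawn with matplotlib 3.10.9.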

Additional observations from a re-analysis of the deposited data

Results flagged for a closer look

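A value was singled out where the gap of the highest or lowest array of a group to its neighbour was large for the range of the group (Dixon's test for 5 arrays), which by chance occurs in about 1 in 20 groups, and 35 such arrays were found among 392 groups of named genes, list means and quality measures. TKO 1 accounts for many of them. It was the lowest TKO array for Rrp8 (7.87), Nme2 (13.33), Tomm70a (10.69), Tomm20 (12.88), Timm9 (8.61), Cct8 (11.11), Pold1 (8.77), Rad51c (6.88), Ephb3 (8.22), Cd44 (8.57), Cdca7 (10.79), Tlr1 (4.98) and Olfm4 (12.49), and the highest for Cap1 (11.41). It was also lowest for the list means of ribosome biogenesis (9.22), translation factors (11.47), nucleotide, serine and one-carbon synthesis (9.43), chaperonins and mitochondrial import (11.54) and G1/S (9.37). The same array had the highest enterocyte, T cell and MHC class II means of the 10 arrays.

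The array labelled TKO 2 was lowest for Orc1 (7.55) and highest for the 3' minus 5' difference of actin (0.78) and Gapdh (0.24). The array labelled TKO 5 was lowest for the Paneth list mean (10.87). TKO 3 was highest for Scg3 (7.35), and TKO 4 for Acer1 (9.80) and Mal2 (10.56). Among QKO arrays, QKO 4 was highest for Utp11 (9.68), Orc1 (8.84) and the polymerase I and III mean (8.71) and lowest for the enterocyte mean (10.96). QKO 1 was lowest for Gip (12.55), QKO 3 for Eprs (10) and Abcc6 (6.76), and QKO 5 for Ccnb1ip1 (4.79), and QKO 2 was highest for the myeloid mean (7.06).

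The QKO minus TKO difference departed from the Myc KO minus control difference, by the test of the difference, for Retnlb (6.47), Elobl (1.90), Scpep1 (1.61), 9930104L06Rik (1.5), Rims2 (1.34), Ndufs5 (1.14), Cybrd1 (0.72), Cebpb (-0.53), Amacr (-1.42) and Cap1 (-4.34). Among them Cap1, Ndufs5, 9930104L06Rik and Cebpb lie within 20 Mb of a deleted gene, and the part of that position was not tested.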

How the results depend on the processing

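The count of genes called in QKO against TKO was 3100, and it was 1549 (780 higher and 769 lower) with only the 10 arrays of both groups. The 1653 higher genes were 910 among genes above the median level, where fewer genes were tested, and 1009 without TKO 1, 2 and 5. The 1447 lower genes were 962 without the arrays labelled TKO 2 and 5 and 2216 without TKO 1. Leaving out each array in turn gave 2185 to 4288 called, 1144 to 2072 higher and 1041 to 2216 lower. With the replicate number as a block, 3489 were called. The 136 named genes followed across fits were those past the test together with E2f2 and E2f3, which missed it. All of them kept direction and status with that block. Samples with the same number correlated at -0.16 to 0.25 in their deviations from group means. Samples with different numbers were not compared, so these values cannot settle whether the numbers pair the samples. Myc KO against control gave 1511 calls and 3427 with array weights. The difference of the contrasts passed for 10 genes and for 6 among genes above the median level. Without _s_at, _x_at and _a_at probe sets, Qars (0.02), Cct8 (0.07) and Bmf (0.00) no longer fell. The probe sets left for these 3 genes averaged below the array medians in both groups, as did the called probe set of Bmf. In the same setting 7 other named genes kept their direction but lost their call. Of the same 136 named genes, 124 kept direction and status without TKO 2 and 5, 112 without TKO 1, 2 and 5, and 119 with only the 10 arrays. Except where the alternative itself tests fewer genes, the cause was not tested. The other alternatives run on a count kept it within 1.5 times. For Myc KO against control and for the difference of the contrasts, leaving out single arrays, leaving out TKO 1, 2 and 5 together, and dropping the genes near (20 Mb) a deleted locus were not run. Without detection calls, signals near the array medians limit the fold changes.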

Other observations

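Xist, which is transcribed from the inactive X chromosome of female cells, read 13.40 and 13.01 in QKO 4 and 5 and 6.83 to 6.96 in the other QKO arrays, and 12.02 and 12.54 in TKO 1 and 4 and 6.56 to 6.66 in the other TKO arrays. The labels give no sex. With the Xist signal as a covariate, 1613 genes were higher and 1374 lower in QKO than in TKO. In that fit 135 of the 136 named genes followed across fits kept their status.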
